A study of Mus musculus with 6 samples.

Results

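Integrins and laminins are the receptors and the ligands by which epithelial cells hold on to the basement membrane. They were taken from RNA-seq of mouse intestinal organoids as every row whose symbol begins with Itga or Itgb followed by letters or digits, or reads Lama, Lamb or Lamc followed by 1 digit. The rule found 42 of the 24956 rows of the table: 27 integrin chains, 11 laminin chains, and 4 genes that share the symbol but are not integrin chains (Itgb1bp1, Itgb1bp2, Itgb3bp and Itgbl1). Apc Min organoids in low glutamine medium (3 libraries) were compared with Apc Min organoids in control medium (3 libraries). Both groups carry the Min allele, a truncating mutation of Apc that predisposes mice to intestinal adenomas, and no wild-type organoids are among the groups. The sources used here do not give the glutamine concentrations, the time in the medium, the part of the intestine or the number of animals or lines. The samples of a group are called biological replicates, but whether each is its own animal or a further culture of the same line is not said, so the p-values measure only the spread between these libraries.

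An integrin is a pair of an alpha and a beta chain that spans the cell membrane. Its outer part binds matrix proteins, and the beta chain's tail links to the actin skeleton through adaptors such as talin and kindlin. In the hemidesmosome the Itgb4 product links to keratins instead. A laminin is a trimer of an alpha, a beta and a gamma chain, and laminin trimers form the sheet of the basement membrane to which the intestinal epithelium adheres. The Itgb1 product pairs with most alpha chains, the Itga6 product also pairs with that of Itgb4, and the Itgav product pairs with those of Itgb3, Itgb5, Itgb6 and Itgb8.

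The values were RPKM, reads scaled to transcript length and library depth, so levels of different genes can be set side by side per length. Estimated depths were 28.2 to 34.0 M reads (megareads) in the low glutamine libraries and 24.4 to 35.4 M reads in the control libraries. The epithelial markers were high in every library, summing over 9 genes to 2958 to 3040 RPKM in low glutamine and 2696 to 2925 RPKM in control. Of the stromal, endothelial, leukocyte and platelet lists, 43 genes in all, only Egfl7, Cd68 and Gp1bb averaged at least 1 RPKM. Pdpn, Lum, Col3a1, Cldn5, Tie1, Emcn, Pf4, Ppbp, Adgre1, Cd3g, Lcp2 and Tyrobp were listed at 0 in all 6 libraries. The summed leukocyte list stood at 2.50 to 2.72 RPKM in low glutamine and 0.970 to 1.22 RPKM in control, with Cd68 averaging 2.0 and 0.685 RPKM, and its part in the results was not tested. The stromal list stood at 0.201 to 0.271 RPKM in low glutamine and 0.326 to 0.433 RPKM in control, the endothelial list at 2.14 to 2.50 and 2.0 to 2.25 RPKM, and the platelet list at 1.65 to 2.36 and 2.32 to 2.91 RPKM. The Y-linked Eif2s3y averaged 27.7 ± 3.25 RPKM in low glutamine and was listed at 0 in control, while Xist averaged 0.0286 ± 0.00577 RPKM in low glutamine and 87.3 ± 3.78 RPKM in control (SD, n = 3 each). The medium and this sex-linked difference coincide in all 6 libraries and cannot be told apart for any gene described here. All 18 members tested are autosomal.

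In low glutamine, laminin chains and several epithelial integrin chains were higher, most of all Lama5, at 14.2 times its control level, while the integrin alpha chains Itga3 and Itga7 and the beta chain Itgb5 were lower. Integrin transcripts as a whole differed less: the summed level of the 18 alpha chains was 94.9 ± 3.28 RPKM in low glutamine and 80.0 ± 1.71 RPKM in control, and that of the 9 beta chains 104 ± 6.91 and 88.4 ± 1.55 RPKM (SD, n = 3 each). By limma with Benjamini-Hochberg adjustment, on log2(RPKM + 1), 18 of the 42 rows had a mean of at least 1 RPKM and were tested. Of these, 14 were higher in low glutamine, 3 lower, and 1 missed the threshold, Itgb4. Among all 11082 tested genes, 36.1% were higher and 30.3% lower, together 66.4%, so most tested genes passed this test. The groups did not overlap for any of the 18 rows, as for 70.2% of all tested genes. The 4 rows Lama5, Lamb1, Lamb2 and Itga7 reached the limit of 1 RPKM only through the group in which they were high and therefore had to differ. Among the 14 rows above 1 RPKM in both groups, 11 were higher, 2 lower and 1 was not called, where 34.4% and 30.6% of the 10531 genes of that level were higher and lower. The median log2 fold change of these 14 rows was 0.46, beside 0.02 over those genes. It was 0.56 over all 18 tested rows, which include the 4 that had to differ, beside 0.03 over all tested genes. With no filter on level, the 3 low glutamine values lay above all 3 control values in 24 of the 42 rows and below them in 5, where the shares among all rows detected in any library were 36.1% and 21.2%. In bulk RNA, more cells of a type and more RNA per cell cannot be told apart.

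**Figure D1:**
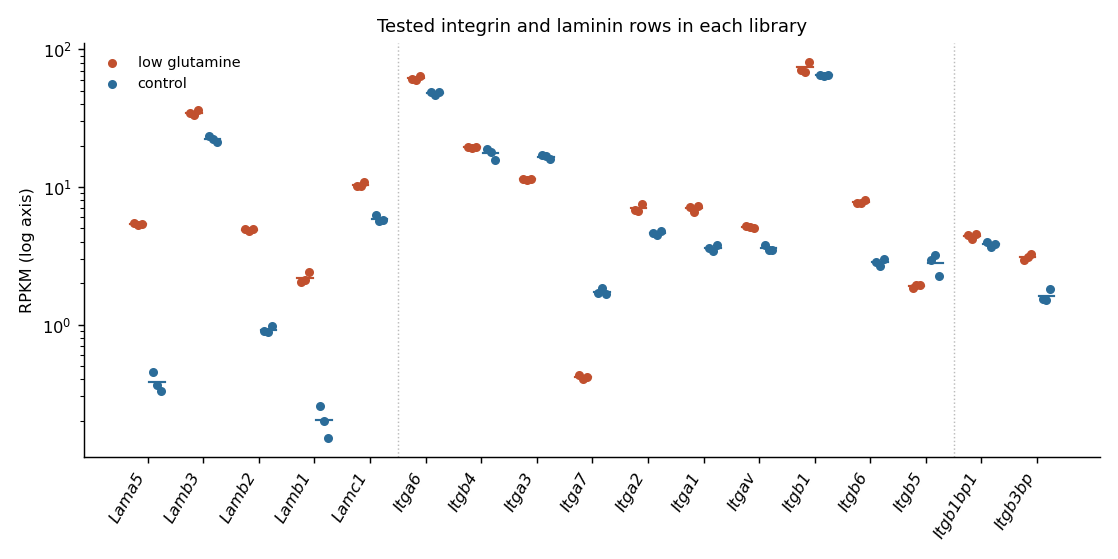
RPKM (log axis) of 17 of the tested integrin and laminin rows in each low glutamine (red, left) and control (blue, right) library, where points are libraries and bars are means of 3, and dotted lines part laminin chains, integrin chains and the 2 rows that are not integrin chains. Lama5 and Lamb1 lie near 5.41 and 2.18 RPKM in low glutamine and near 0.382 and 0.201 RPKM in control, while Itgb1 and Itgb4 differ by a factor of 1.14 and 1.11.

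Laminin alpha chains carry the globular end that integrins bind. Lama5 (chromosome 2, 180176373 to 180225904 of mm10), the alpha chain of the main laminins of adult epithelial basement membranes, had 5.47, 5.33 and 5.42 RPKM in low glutamine, against 0.450, 0.365 and 0.331 RPKM in control. The groups did not come near each other, and the values rested on an estimated 1744 to 2120 reads in low glutamine and 92 to 160 reads in control. On the log2(RPKM + 1) scale it rose by 2.21 ± 0.06 (SE, limma adjusted p = 1.4e-11), and 75 of 11082 tested genes had a larger positive fold change. Lama5 reached the limit for testing through low glutamine alone and had to differ, so its adjusted p and rank carry no further weight. Lama3 (chromosome 18, 12333417 to 12583013), an alpha chain that pairs with the Lamb3 product, stayed under the limit for testing. It had 0.287, 0.228 and 0.275 RPKM in low glutamine and 0.0456, 0.0348 and 0.0350 RPKM in control, an estimated 79 to 103 and 9 to 15 reads. In the fit without a filter on level, Lama3 was higher by 0.28 (adjusted p = 9.2e-05). The other alpha chains were close to absent: Lama4 averaged 0.0611 and 0.00833 RPKM in low glutamine and control, Lama2 0.00427 and 0.00097 RPKM, and Lama1 was listed at 0 in 1 low glutamine library and in all control libraries.

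All 3 laminin beta chains were higher, as were 36.1% of all tested genes. Lamb1 and Lamb2 reached the limit for testing through low glutamine alone and had to differ, while Lamb3 passed it in both groups. Lamb3 (chromosome 1, 193294353 to 193343878), the beta chain of the laminin anchored at hemidesmosomes, was the most abundant laminin chain in both groups. It had 34.2, 33.5 and 36.2 RPKM in low glutamine, against 23.4, 22.4 and 21.1 RPKM in control, and rose by 0.61 ± 0.06 (adjusted p = 1.1e-06). Lamb2 (chromosome 9, 108479847 to 108490530), a beta chain known from the kidney filter and the neuromuscular junction, had 4.98, 4.77 and 4.96 RPKM in low glutamine, against 0.894, 0.884 and 0.968 RPKM in control. It rose by 1.62 ± 0.06 (adjusted p = 1.4e-10), and its mean was 5.36 times that of control. Lamb1 (chromosome 12, 31265146 to 31329644), a beta chain widespread in embryonic basement membranes, had 2.04, 2.11 and 2.39 RPKM in low glutamine, against 0.255, 0.20 and 0.149 RPKM in control, an estimated 391 to 402 and 21 to 46 reads. It rose by 1.4 ± 0.07 (adjusted p = 4.6e-09), 10.8 times as a ratio of means.

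Lamc1 (chromosome 1, 153218922 to 153332786), the gamma chain of most laminins, had 10.1, 10.2 and 10.9 RPKM in low glutamine and 6.24, 5.66 and 5.74 RPKM in control. It rose by 0.73 ± 0.06 (adjusted p = 1.9e-07), and the groups did not overlap. Lamc3 was listed at 0 in 5 of 6 libraries.

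The chains of a trimer stood at unequal levels, and the inequality differed between the groups. Summed by class, the alpha chains stood at 5.74 ± 0.116 RPKM in low glutamine and 0.430 ± 0.0581 RPKM in control, and the beta chains at 41.7 ± 1.64 and 23.4 ± 1.16 RPKM (SD, n = 3 each). Alpha chain transcripts were thus scarcer than beta chain transcripts in every library. Lama5 made up 94.2 ± 0.823% of the alpha class in low glutamine and 88.7 ± 2.67% in control. Lamb3 made up 83.0 ± 0.0873% of the beta class in low glutamine and 95.2 ± 0.219% in control.

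Ratios within a library do not depend on how libraries are scaled to each other. Lama5 over Lamc1 was 0.541, 0.523 and 0.499 in low glutamine, against 0.0721, 0.0644 and 0.0577 in control. Lama5 over Lamb3 was 0.160, 0.159 and 0.150 in low glutamine, against 0.0192, 0.0163 and 0.0157 in control. Lamb2 over Lamb1 was 2.44, 2.26 and 2.07 in low glutamine, against 3.51, 4.41 and 6.51 in control, where Lamb1 rests on few reads. The groups did not overlap in any of these ratios. An exact two-sided permutation test of 3 libraries against 3 cannot go below p = 0.1, so the ratios carry no test.

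**Figure D2:**
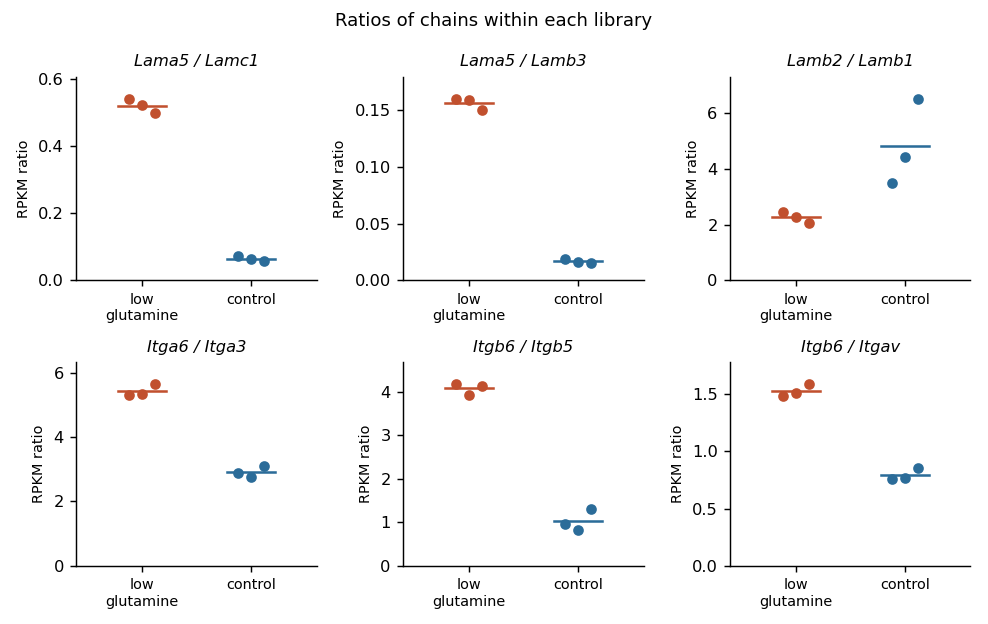
Ratio of the RPKM of 2 chains within each library (linear axes from 0), low glutamine left and control right, with points for libraries and bars for means of 3. Lama5 over Lamc1 averages 0.521 and 0.0647, Itga6 over Itga3 5.43 and 2.91, Itgb6 over Itgb5 4.09 and 1.03, and the groups are apart in the 6 ratios plotted, which leave out the overlapping ratio of Itga6 over Itgb4.

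The annotated promoters of the 3 laminin chains with the largest rises are shown, with that of Itgb5, which fell, beside them. These 3 chains reached the limit for testing through low glutamine alone and had to differ. Each window runs from 250 bases before to 50 bases after a RefSeq start on GRCm38.p6 (mm10), read 5′ to 3′ on the gene's strand, and capitals mark GC boxes (GGGCGG on either strand). The windows are chr2:180225810-180226109 on the minus strand for Lama5, and on the plus strand chr12:31265043-31265342 for Lamb1, chr9:108479612-108479911 for Lamb2 and chr16:33829415-33829714 for Itgb5.
Lama5: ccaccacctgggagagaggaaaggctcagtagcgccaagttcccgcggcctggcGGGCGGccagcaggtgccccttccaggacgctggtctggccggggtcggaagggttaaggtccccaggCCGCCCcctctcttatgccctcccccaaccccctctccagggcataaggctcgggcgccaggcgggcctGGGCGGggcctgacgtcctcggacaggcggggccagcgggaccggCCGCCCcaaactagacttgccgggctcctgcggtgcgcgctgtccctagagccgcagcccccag
Lamb1: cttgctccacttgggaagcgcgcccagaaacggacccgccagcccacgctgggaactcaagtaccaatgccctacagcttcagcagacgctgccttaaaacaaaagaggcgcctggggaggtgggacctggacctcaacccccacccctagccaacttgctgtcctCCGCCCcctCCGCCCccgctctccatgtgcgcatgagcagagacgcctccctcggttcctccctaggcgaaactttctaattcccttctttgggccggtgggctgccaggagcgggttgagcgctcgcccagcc
Lamb2: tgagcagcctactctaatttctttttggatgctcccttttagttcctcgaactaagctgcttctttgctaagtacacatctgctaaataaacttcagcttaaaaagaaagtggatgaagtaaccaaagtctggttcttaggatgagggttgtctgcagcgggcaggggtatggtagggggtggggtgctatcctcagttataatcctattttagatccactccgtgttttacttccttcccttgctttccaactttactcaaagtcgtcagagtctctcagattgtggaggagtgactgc
Itgb5: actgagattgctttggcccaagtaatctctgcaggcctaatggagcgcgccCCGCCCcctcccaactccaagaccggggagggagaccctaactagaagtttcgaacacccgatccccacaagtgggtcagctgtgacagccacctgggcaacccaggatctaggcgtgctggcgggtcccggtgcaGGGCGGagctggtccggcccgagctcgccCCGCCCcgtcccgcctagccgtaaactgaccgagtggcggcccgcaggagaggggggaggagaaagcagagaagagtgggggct
The Lama5, Lamb1 and Itgb5 windows held 4, 2 and 3 GC boxes, and the Lamb2 window held 0. GC content was 72.7% in the Lama5 window, 63.7% in that of Lamb1, 44.0% in that of Lamb2 and 65.7% in that of Itgb5, where the median of all windows was 52.7%. A GC box thus stood in windows of genes that rose and of a gene that fell. RefSeq windows were matched for 27 of the 42 members, 30 windows in all. The GC box was in 13 of the 30 windows, 43.3%, beside 35.7% of all 32851. The AP-1 motif TGANTCA was in 3 (7.81% of all), the TEAD motif GGAATG in 3 (14.7% of all) and the TCF/LEF motif CTTTGAT in 0 (3.73% of all), counted on both strands, and no matches to different motifs overlapped. A match is a description of these letters only.

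Of the integrin chains that bind laminin, Itga6 rose, Itga3 and Itga7 fell, and Itgb4 did not pass. Itga6 (chromosome 2, 71786886 to 71858427), whose product pairs with those of Itgb1 and Itgb4, had 60.5, 59.9 and 64.4 RPKM in low glutamine, against 49.1, 46.7 and 49.2 RPKM in control. It rose by 0.34 ± 0.05 (adjusted p = 1.3e-04) and made up 64.9 ± 0.400% of alpha chain transcripts in low glutamine and 60.4 ± 0.887% in control. Itga3 (chromosome 11, 95044475 to 95076844), the other laminin receptor chain of epithelia, had 11.4, 11.2 and 11.4 RPKM in low glutamine, against 17.1, 16.8 and 15.9 RPKM in control. It fell by 0.51 on the log2 scale (SE 0.05, adjusted p = 2.1e-06), to 12 ± 0.330% of alpha chain transcripts, against 20.8 ± 0.844% in control. Itga6 over Itga3 was 5.32, 5.33 and 5.64 in low glutamine and 2.87, 2.77 and 3.09 in control, with no overlap.

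Itga7 (chromosome 10, 128933421 to 128958286), best known as the laminin receptor chain of muscle, had 0.432, 0.402 and 0.418 RPKM in low glutamine, against 1.68, 1.86 and 1.67 RPKM in control. It fell by 0.95 on the log2 scale (SE 0.07, adjusted p = 8.3e-08), from an estimated 47 to 59 reads in low glutamine and 164 to 264 reads in control. Itga7 reached the limit for testing through control alone and had to differ. The muscle and stromal markers Des, Acta2 and Myh11 stood under 0.1 RPKM in both groups. Pdgfrb, the highest gene of the stromal list, averaged 0.0739 ± 0.00586 RPKM in low glutamine and 0.271 ± 0.0274 RPKM in control, lower without overlap as Itga7 was. Myh11 and Col6a1 lay above control without overlap, and the rest of that list did not separate. Whether stromal transcripts bear on the fall of Itga7 was not tested. Itgb4 (chromosome 11, 115974725 to 116008412), the beta chain of hemidesmosomes, had 19.7, 19.2 and 19.4 RPKM in low glutamine and 18.8, 18 and 15.8 RPKM in control. Its groups did not overlap, but the difference of 0.14 ± 0.06 missed the threshold (adjusted p = 0.060, interval 0.01 to 0.28). Control replicate 3 lay below the other controls, farthest from low glutamine, and without it the difference shrank to 0.08 (adjusted p = 0.21). Itgb4 passed when replicate numbers were blocked (adjusted p = 0.030), with 3 other scalings and without control replicate 1, with adjusted p from 0.0014 to 0.38 over the alternatives. Itga6 over Itgb4 was 3.08, 3.12 and 3.32 in low glutamine and 2.62, 2.59 and 3.11 in control, with overlap. In the annotation, 537 exonic bases of Itgb4 overlap B230344G16Rik on the other strand, and the sources used here do not say whether counting used strand. In all, 12 members have exons that overlap another annotated gene, among the tested ones Itgb4, Itga1, Itgb1bp1 and Itga7.

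Both collagen-binding alpha chains that were tested rose, where 36.1% of all tested genes were higher. Itga1 (chromosome 13, 114958079 to 115101964) had 7.16, 6.57 and 7.27 RPKM in low glutamine and 3.6, 3.40 and 3.80 RPKM in control. It rose by 0.80 ± 0.06 (adjusted p = 1.4e-07). Itga2 (chromosome 13, 114833081 to 114932100) had 6.82, 6.74 and 7.53 RPKM in low glutamine and 4.64, 4.49 and 4.76 RPKM in control. It rose by 0.51 ± 0.06 (adjusted p = 6.1e-06), and neither gene's groups overlapped. The remaining chains of this class were low: Itga10 averaged 0.188 ± 0.0580 RPKM in low glutamine and 0.260 ± 0.05 RPKM in control, with overlap, and Itga11 was listed at 0 in 5 libraries.

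Among the receptor chains of the RGD motif, Itgav and Itgb6 rose and Itgb5 fell. Itgb6 (chromosome 2, 60598292 to 60722603), an epithelial beta chain whose pair with Itgav binds and activates latent TGF-beta, had 7.67, 7.69 and 8.01 RPKM in low glutamine, against 2.86, 2.66 and 2.97 RPKM in control. It rose by 1.2 ± 0.06 (adjusted p = 1.6e-09), a ratio of means of 2.75, and 352 tested genes had a larger positive fold change. Its partner Itgav (chromosome 2, 83722303 to 83806917) had 5.17, 5.09 and 5.04 RPKM in low glutamine and 3.78, 3.48 and 3.49 RPKM in control, and rose by 0.41 ± 0.05 (adjusted p = 2.6e-05). Itgb5 (chromosome 16, 33829665 to 33949338), another partner of Itgav and a receptor of vitronectin, had 1.84, 1.95 and 1.93 RPKM in low glutamine, against 2.97, 3.21 and 2.27 RPKM in control. It fell by 0.39 on the log2 scale (SE 0.09, adjusted p = 0.0017), and control replicate 3 was the control nearest the low glutamine group. Itgb6 over Itgb5 was 4.18, 3.94 and 4.15 in low glutamine and 0.966, 0.828 and 1.31 in control: the Itgb6 transcript exceeded that of Itgb5 in low glutamine and was about as abundant as it in control. Itgb6 over Itgav was 1.48, 1.51 and 1.59 in low glutamine and 0.758, 0.764 and 0.852 in control, again with no overlap.

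Itgb1 (chromosome 8, 128685654 to 128733579), the common beta chain, was the most abundant member in both groups. It had 71.3, 68.8 and 81.6 RPKM in low glutamine and 65.1, 63.8 and 65.6 RPKM in control. The difference of 0.18 ± 0.07 passed (adjusted p = 0.028), but no longer passed with median-of-ratios scaling (0.09, adjusted p = 0.12), without control replicate 1 (adjusted p = 0.072) or replicate 2 (adjusted p = 0.079), or with no filter on level (adjusted p = 0.061). Its adjusted p ran from 4.2e-05 to 0.12 over the alternatives. Its share of beta chain transcripts, 70.7 ± 1.75% in low glutamine and 73.4 ± 1.81% in control, overlapped between the groups.

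**Figure D3:**
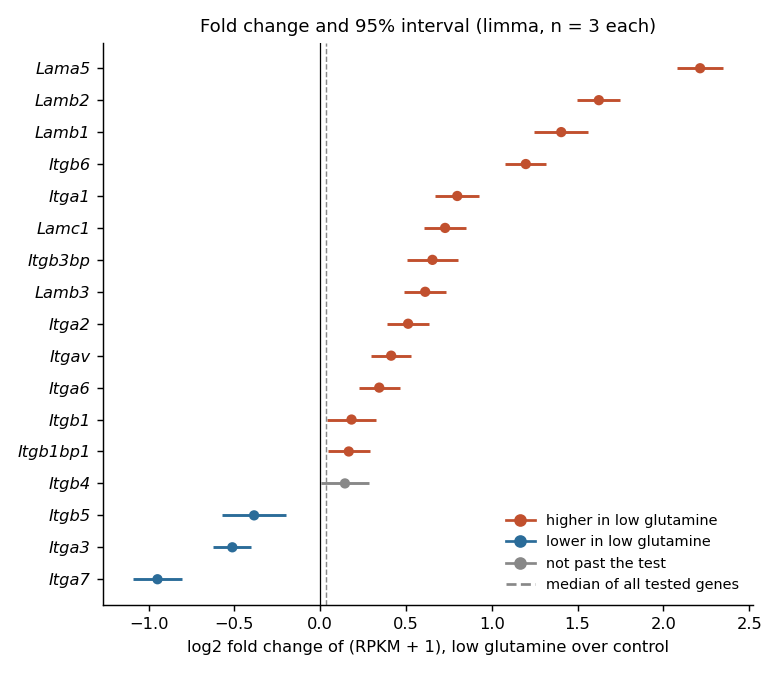
Log2 fold change of (RPKM + 1), low glutamine over control, with the 95% interval from limma (3 libraries a group) for 17 of the tested rows in order of size, where red is higher, blue lower and grey not past the test, and the dashed line is the median of all tested genes at 0.03. Lama5 lies at 2.21, Lamb2 at 1.62 and Lamb1 at 1.4, and Itga7, Itga3 and Itgb5 lie below 0. Lama5, Lamb1, Lamb2 and Itga7 reached the limit for testing through their high group alone and had to differ.

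The 24 untested rows averaged at most 0.533 RPKM over the 6 libraries. Of these, the 3 low glutamine values lay above control in 9 rows, below it in 2 and overlapped in 13. The 9 include Lama2, at an estimated 1 to 2 reads per library in low glutamine and 0 to 1 in control. Among all 7648 untested rows detected in any library, 32.0% lay above control and 6.54% below it. The widest differences were in 3 integrin chains that were near the bottom of detection in control. Itga9, a receptor of tenascin and other matrix proteins, had 0.982, 0.963 and 1.01 RPKM in low glutamine, against 0.0723, 0.0837 and 0.0808 RPKM in control, an estimated 201 to 235 and 14 to 21 reads. Itga4, a chain best known from leukocytes, had 0.622, 0.612 and 0.633 RPKM in low glutamine and 0.0403, 0.0575 and 0.0583 RPKM in control. Itgb8, which pairs with Itgav and activates TGF-beta, had 0.864, 0.814 and 0.697 RPKM in low glutamine and 0.0931, 0.0456 and 0.106 RPKM in control. As ratios of means these were 12.5, 12 and 9.71, and in the fit without a filter the differences were 0.88, 0.62 and 0.73 (adjusted p = 1.7e-06, 2.5e-06 and 3.3e-05). That fit called 21 of the 42 rows higher and 5 lower, where it called 30.5% and 18.8% of all 18730 rows.

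Leukocyte integrin chains were low and gave no common direction: Itgam lay below control, Itgb7 and Itgae above it, and the others overlapped. Summed over 8 genes they stood at 0.984 ± 0.112 RPKM in low glutamine and 1.18 ± 0.207 RPKM in control, with overlap. Itga4 is not among the 8, and the control sum rests mostly on Itgam. Itgb2, the beta chain that Itgal, Itgam, Itgax and Itgad need, averaged 0.0117 RPKM in low glutamine and 0.00702 RPKM in control, at most an estimated 2 reads in a library. The pan-leukocyte gene Ptprc was listed at 0 in low glutamine and averaged 0.00911 RPKM in control, with overlap. Of the other leukocyte markers, Cd68, Laptm5 and Coro1a lay above control without overlap, and none lay below it. Laptm5 averaged 0.346 RPKM in low glutamine and 0.0484 RPKM in control. Itgam, at 0.232, 0.246 and 0.212 RPKM in low glutamine and 0.910, 0.766 and 0.673 RPKM in control, made up most of the control sum of the 8 integrin genes. In the annotation 3450 exonic bases of Itgam are shared with Gm49368 on the same strand, so its reads are uncertain. Itgb7 had 0.461, 0.307 and 0.278 RPKM in low glutamine and 0.0838, 0.232 and 0.0459 RPKM in control, and Itgae, which pairs with it on intraepithelial lymphocytes, averaged 0.120 and 0.0289 RPKM. The platelet chain Itga2b averaged 0.0951 ± 0.00738 RPKM in low glutamine and 0.244 ± 0.0605 RPKM in control, while its partner Itgb3 was listed at 0 in every control library. Itga5, the fibronectin receptor chain, averaged 0.0718 and 0.0115 RPKM, and Itga8 was under 0.01 RPKM in low glutamine and at 0 throughout the control libraries.

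**Figure D4:**
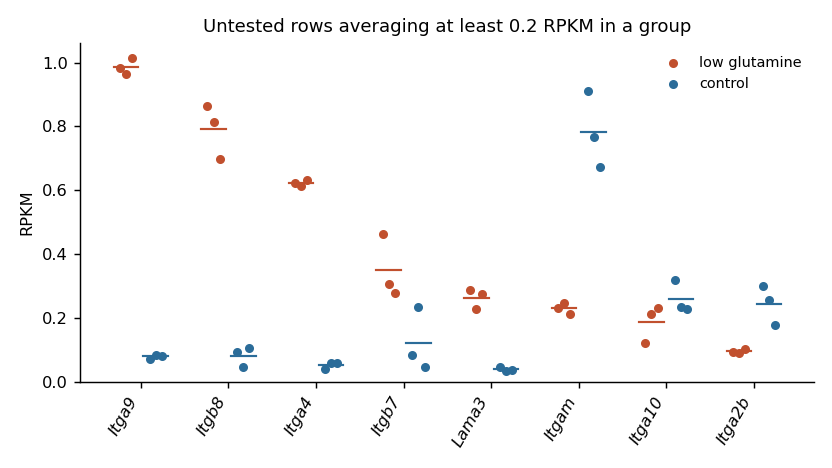
RPKM (linear axis from 0) in each low glutamine (red, left) and control (blue, right) library of the 8 untested rows that average at least 0.2 RPKM in either group, with bars for means of 3. Itga9, Itgb8 and Itga4 stand at 0.986, 0.792 and 0.622 RPKM in low glutamine and under 0.1 RPKM in control, and Itgam and Itga2b are lower in low glutamine.

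Of the 4 rows that are not integrin chains, 2 were tested. Itgb3bp, which encodes a centromere protein, had 2.94, 3.12 and 3.27 RPKM in low glutamine and 1.52, 1.5 and 1.82 RPKM in control, and rose by 0.65 ± 0.07 (adjusted p = 3.3e-06). Itgb1bp1, whose product binds the Itgb1 tail and restrains its activation, had 4.51, 4.21 and 4.56 RPKM in low glutamine and 3.95, 3.69 and 3.86 RPKM in control. Its difference of 0.17 ± 0.06 passed (adjusted p = 0.019) but no longer passed with median-of-ratios scaling (0.09), quantile normalization (0.07), without control replicate 2 or without low glutamine replicate 1, with adjusted p up to 0.18. The X-linked Itgb1bp2 averaged 0.124 and 0.0802 RPKM in low glutamine and control and Itgbl1 0.0142 and 0.00579 RPKM, both with overlap.

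Replicates of a group lay close together for most tested members. In low glutamine the coefficient of variation ran from 0.790% (Itga3) to 9.14% (Itgb1), and in control from 1.45% (Itgb1) to 26.4% (Lamb1). Low glutamine replicate 3 held the highest value of its group for 12 of the 18 members and replicate 2 the lowest for 12. Over all genes, 54.4% of calls were higher in low glutamine, and this share was 69.0% with libraries rescaled to a common sum, 71.6% with the same after leaving out the ribosomal RNA precursor Rn45s, and 42.4% with median-of-ratios scaling. With the common sums, the median of all genes was 0.14 and 0.17, so differences of the size seen in Itgb1, Itgb4 and Itgb1bp1 depend on the scaling. The direction of all 18 tested members held under each of these scalings.

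Genes that act beside integrins and laminins moved in both directions, as did all tested genes, of which 36.1% were higher and 30.3% lower. Of 33 genes of integrin activation and focal adhesion, 25 were tested, 14 rose and 8 fell (median 0.24), with Tln2, at 1.39 RPKM in low glutamine and 0.827 RPKM in control, reaching the limit through low glutamine alone. The actin crosslinker Flna rose by 1.99 ± 0.06 and averaged 27.6 ± 2.17 RPKM in low glutamine and 6.19 ± 0.353 RPKM in control. Tns4, a tensin that binds beta chain tails, rose by 0.96 ± 0.07 and Parva, a partner of integrin-linked kinase, by 0.93 ± 0.05. Tns2, Bcar1 and the scaffold Pxn fell by 0.43, 0.35 and 0.32. Ilk, Arhgef7 and Nedd9 did not pass, at 28.7, 6.77 and 14 RPKM in low glutamine and 27.1, 6.56 and 14.8 RPKM in control.

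Of 13 hemidesmosome components and laminin receptors other than integrins, 10 were tested, 6 rose and 2 fell (median 0.29). Among all tested genes, 36.1% were higher and 30.3% lower. Bcam, a membrane protein that binds the Lama5 chain, averaged 12.5 ± 0.329 RPKM in low glutamine and 5.03 ± 0.302 RPKM in control and rose by 1.17 ± 0.06 (adjusted p = 2.0e-09). Utrn and Sgcb, of the complex around dystroglycan, rose by 0.82 and 0.53, though Sgcb, at 1.62 RPKM in low glutamine and 0.811 RPKM in control, reached the limit through low glutamine alone and had to differ. In contrast, dystroglycan itself (Dag1) fell by 0.43 and averaged 57.0 ± 2.67 RPKM in low glutamine and 77.4 ± 2.04 RPKM in control. The tetraspanin Cd151, which associates with laminin-binding integrins, fell by 0.30. Plec and Rpsa did not pass, at 8.44 and 670 RPKM in low glutamine and 9.20 and 692 RPKM in control.

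In the next 2 lists, the counts stand beside 36.1% higher and 30.3% lower among all tested genes. Of 21 other basement membrane genes 6 were tested, 4 rose and 0 fell (median 0.33). The 4 that rose were the perlecan gene Hspg2 (3.53 ± 0.114 RPKM in low glutamine and 1.43 ± 0.126 RPKM in control), Smoc2 (256 ± 6.22 and 143 ± 3.53 RPKM), the netrin Ntn4 (4.07 ± 0.192 and 2.57 ± 0.201 RPKM) and Fbln1 (24.8 ± 0.384 and 22.2 ± 1.6 RPKM, adjusted p = 0.037). Agrn and Nid2 did not pass. The collagen IV chains, the other network of the basement membrane, averaged under 0.2 RPKM in both groups and were not tested. Col4a1, Col4a2, Col4a3 and Col4a5 lay above control without overlap, with Col4a2 at 0.191 ± 0.00787 RPKM in low glutamine and 0.0186 ± 0.00352 RPKM in control. Among all untested rows detected in any library, 32.0% lay above control. Of 22 other integrin ligands 6 were tested, 4 rose and 1 fell (median 0.39). Thbs1, a matrix glycoprotein, averaged 30.9 ± 1.30 RPKM in low glutamine and 1.15 ± 0.0972 RPKM in control, and rose by 3.89 ± 0.06 (adjusted p = 8.8e-14). Npnt, the ligand of the Itga8 pair, rose by 0.98, having reached 1 RPKM in low glutamine alone (2.29 ± 0.118 RPKM in low glutamine and 0.662 ± 0.0333 RPKM in control), so that it had to differ. Cdh1, the ligand of the Itgae pair, rose by 0.40 and the bridging protein gene Mfge8 by 0.38, while Adam15 fell by 0.48. Adam9 did not pass. Fn1, the fibronectin gene, averaged 0.178 and 0.00112 RPKM in low glutamine and control, and Vtn and Spp1 were listed at 0 in all 6 libraries.

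**Figure D5:**
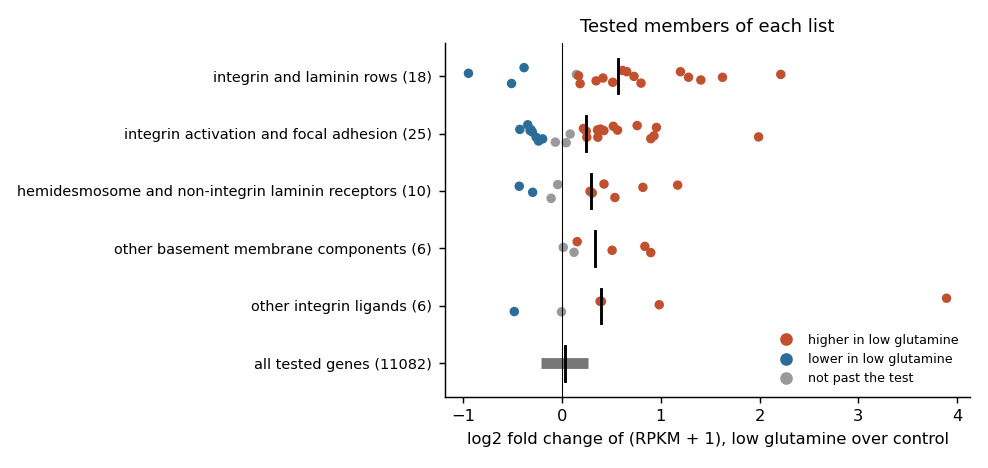
Log2 fold change of (RPKM + 1), low glutamine over control, of the tested members of each list (numbers in brackets), where points are genes in red (higher), blue (lower) or grey (not past the test), black bars are medians, and the grey bar spans the 25th to 75th percentile of all tested genes. The medians are 0.56, 0.24, 0.29, 0.33 and 0.39 from top to bottom, beside 0.03 for all tested genes, and the point at 3.89 is Thbs1. The top list holds 4 rows, and other lists Tln2, Sgcb and Npnt, that reached 1 RPKM through 1 group only. For top-list rows above 1 RPKM in both groups the median was 0.46, beside 0.02 for all genes of that level.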

How the data were processed

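RNA from 6 libraries of Apc Min intestinal organoids was sequenced, 3 from low glutamine and 3 from control medium. The authors deposited RPKM values, 1 column per library and 24956 rows named by symbol, for which the submitters' processing notes list mm10, HISAT2 2.0.4, CASAVA 1.8 and Partek with no role or order. The sources used here do not give the annotation, the counting rule or the strandedness. The table holds 955 values above 0 and under 1e-06, which were set to 0. Depth was estimated from the lowest values of single-exon genes, at which 83.7% to 88.2% of the low values checked came out as whole reads within 0.02, values that set the depth included. Reads per member were then estimated with the longest coding transcript of GENCODE M21, and carry counting error.

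RPKM are not counts, so no count test was run. limma 3.58.1 in R 4.3.3 was fitted with a variance trend to log2(RPKM + 1) of the 11082 genes whose mean reached 1 RPKM, low glutamine over control, two-sided, with Benjamini-Hochberg adjustment over all of them and a threshold of 0.05. The pseudocount makes fold changes of low genes too small. The fit was tested on simulated data. Tables and plots used Python 3.11.15, pandas 2.3.3, numpy 2.4.6 and matplotlib 3.10.9. Symbols were matched to RefSeq genes of GRCm38.p6 (42 of 42), whose 1-based bounds are given.

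The members and lists were chosen with earlier results of these data known. All members but 1, which is not reported here, are described, and from each of the 4 lists of related genes the 3 largest rises and falls, with remainders of 5 or fewer. Libraries with the same number (1, 2 and 3) deviated together, with correlations of 0.15, 0.25 and 0.57, all above 0.1. Low glutamine replicate 1 gave 0.36 with control replicate 2, and low glutamine replicate 2 gave 0.20 with control replicate 1. The correlations thus do not single out same-numbered pairs, and the labels do not say that the numbers pair the samples. The main fit therefore had no block, and its p-values leave out any pairing. A fit with the replicate number as a block was run as an alternative. Alternatives were 2 pseudocounts, 2 filters, 4 scalings, no variance trend, the replicate block and leaving out each library.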

Additional observations from a re-analysis of the deposited data

How the results depend on the processing

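Over 16 alternatives, 267 of 280 values of single members kept their direction and their side of the threshold, 8 lost the call, 5 gained it and 0 changed direction. The 8 concern Itgb1 and Itgb1bp1 and the 5 Itgb4. With no filter on low values, 21 rows were higher, 5 lower and the median was 0.10, over 42 rows rather than 18. With a limit of 5 RPKM, 8 were higher and 1 lower of the 10 rows left. Some of these rows, Itgb6, Itga1 and Itga2 among them, averaged under 5 RPKM in control. They reached this limit through low glutamine alone, so the limit favoured rows that were higher. Among all 7994 genes left at this limit, 5279 were called, and 48.0% of these calls were higher. The median of the tested rows was 0.32 with a pseudocount of 5, 0.68 with rescaling to a common sum, 0.70 with the same without Rn45s, 0.48 with median-of-ratios scaling and 0.49 with quantile normalization, beside 0.56. In the same order, the median of all tested genes was 0.02, 0.14, 0.17, -0.05 and 0.02, beside 0.03. The cause of the shifts was not tested. Leaving out 1 library at a time gave 12 to 14 rows higher, 3 lower, 6696 to 7353 genes called and a median of 0.52 to 0.59. With the replicate number as a block, 15 rows were higher and 3 lower, 7736 genes were called, and no call other than that of Itgb4 changed. Depth limits Itgbl1, Itgb2, Itgb3, Itgax, Itga8, Itga11, Lama1, Lama2 and Lamc3, at an estimated 3 reads or fewer per library, too few to judge a difference. Lama2 is nonetheless counted among the rows whose low glutamine values lay above control.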

Other observations

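Itga2 and Itga1 lie next to each other, 26.0 kb apart on chromosome 13, and rose by 0.51 and 0.80, which is a description of 1 pair. By mean level, Lama5 ranked 11 among the 42 members in low glutamine and 18 in control, and Lamb1 ranked 16 in low glutamine and 21 in control. Itga7 ranked 21 in low glutamine and 14 in control, and Itgam 24 and 17.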
